A study of Homo sapiens with 2 samples.

Results

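The 9 genes described here are the transcription factors SNAI1, SNAI2, ZEB1 and ZEB2, which drive epithelial-mesenchymal transition (EMT), the mesenchymal filament gene VIM, and the epithelial genes OVOL1, OVOL2, ESRP1 and ESRP2. They were chosen by symbol from a table of 16951 genes, and all 9 were found in it. It was made from FaDu, an established human cell line of hypopharyngeal squamous cell carcinoma. Total RNA was sequenced at day 2 after a control shRNA (shControl) or one that targets KIF2C (shKIF2C), with 1 library per condition. A short hairpin RNA (shRNA) is expressed in the cell and processed to degrade a matching mRNA, and KIF2C is a kinesin that removes tubulin from microtubule ends. The series' design text speaks of blank vectors for the control, and the labels do not say how many clones or hairpins were used.

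The columns of the table carry the codes C1 and D1, which no label ties to a condition. The targeted gene KIF2C had 783 reads in C1 and 3036 in D1 (log2 ratio 2.04, 95% counting interval 1.93 to 2.16). This goes against reading C as control and D as knock-down, so the codes are kept as names and each ratio sets the library labelled D1 against the library labelled C1. The knockdown library is not identified. Library C1 held 18189742 estimated reads and D1 18560024. With 1 library per condition no difference has a replicate check and no p-value is given, and every interval covers counting error only.

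In EMT an epithelial cell loosens its junctions and takes on properties of a motile mesenchymal cell. SNAI and ZEB proteins are zinc finger repressors that bind E-box sequences in genes such as CDH1, which encodes the adhesion protein E-cadherin. OVOL proteins are epithelial zinc finger repressors known to hold ZEB genes down, and ESRP proteins are RNA-binding proteins that keep epithelial exons in mRNAs of genes such as FGFR2 and CD44. SNAI2 is also expressed in basal cells of stratified epithelia, so it is not a marker of mesenchymal cells alone.

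The E-box searched was CAGGTG, whose reverse complement is CACCTG, so a match on either strand was counted. No other motif was searched, so overlap with other motifs was not examined. In RefSeq promoters of GRCh38.p14, cut to the 250 bases before each annotated start, 17.5% of 35116 held it. Promoter sequences of 3 members could be used, namely ZEB1, ZEB2 and VIM. ZEB1 had the motif before 2 of its 7 annotated starts, while the single windows of ZEB2 and VIM did not contain these letters. Among genes known as targets of SNAI and ZEB repressors, 12 of 16 with a promoter sequence had the motif before at least 1 start (75.0%, against 20.6% of 27305 genes). That list was drawn from textbook targets, genes with several starts have more windows, and the share was not tested. The windows below show the motif in capitals where ZEB1, a member, and DSP, the desmosome gene desmoplakin, carry it before the start of the annotated gene. All are on the plus strand, at chr10:31318340-31318385 for ZEB1, and at chr6:7541473-7541518 and chr6:7541566-7541611 for DSP.
ZEB1, 57 bases before the start: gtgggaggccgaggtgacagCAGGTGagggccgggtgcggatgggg
DSP, 178 bases before the start: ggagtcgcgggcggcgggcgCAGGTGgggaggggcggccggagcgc
DSP, 85 bases before the start: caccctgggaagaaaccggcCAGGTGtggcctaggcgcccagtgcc
The values of ZEB1 and DSP in both libraries are given with their groups. A match of letters is a description and does not show that a protein binds there.

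SNAI2 was the member with the largest difference. It had 429 reads in C1 and 1676 in D1, or 23.07 and 86.39 deposited TPM (a relative level corrected for transcript length). The log2 ratio of its counts, scaled by trimmed mean of M values (TMM), was 2.05 (95% counting interval 1.90 to 2.21), which is 4.16-fold. SNAI2 (NCBI gene 6591) encodes the repressor known as Slug and is placed on chromosome 8 (48917598 to 48921429, GRCh38.p14). By TPM it ranked 6198 among all genes in C1 and 1968 in D1. SNAI2 was one of the genes known to stand out in these libraries when the 9 genes were chosen, so its ratio is a description. In RNA from a whole culture, more cells with SNAI2 mRNA and more of it per cell cannot be told apart.

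The related factor SNAI1 did not share this difference. SNAI1 (NCBI gene 6615, chromosome 20 from 49982980 to 49988886) encodes Snail, the founding repressor of CDH1, and had 45 reads in C1 and 26 in D1, or 3.11 and 1.72 TPM. Its log2 ratio was -0.69, with a counting interval from -1.46 to 0.03 that includes 0. With plain totals the interval ran from -1.58 to -0.09, so whether SNAI1 was lower in D1 beyond counting error depends on the scaling. In reads, SNAI2 outnumbered SNAI1 9.53 to 1 in C1 and 64.5 to 1 in D1. The change of that ratio, 6.75-fold (exact conditional 95% interval 4.03 to 11.5), uses no library scaling.

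The ZEB genes were low in both libraries, and ZEB2 was close to the limit of detection. ZEB1 (NCBI gene 6935, chromosome 10 from 31318417 to 31529804), a repressor of epithelial genes with zinc finger clusters at both ends, had 38 rounded reads in C1 and 30 in D1, or 0.69 and 0.54 TPM. Its log2 ratio was -0.25 (-0.99 to 0.48). ZEB2 (NCBI gene 9839, chromosome 2 from 144384081 to 144520119), its close relative, had 1 read in C1 and 3 in D1. Both ZEB2 values lie at or under 3 reads, the limit that a count of 0 allows, so no fold is given and ZEB2 is the member that did not reach 1 CPM (a read count scaled to library size) in C1 or D1. ZEB1 and ZEB2 overlap the antisense genes ZEB1-AS1 and ZEB2-AS1, while VIM overlaps VIM-AS1 and OVOL1 overlaps OVOL1-AS1. No strand setting is stated in the sources used here, so reads of the partners cannot be told apart.

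SNAI2 thus made up most of the TPM of these 4 factors in both libraries. Its share was 85.8% of 26.88 TPM in C1 and 97.4% of 88.69 TPM in D1. The share of SNAI1 was 11.6% and 1.94%, and that of ZEB1 was 2.57% and 0.61%.

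**Figure D1:**
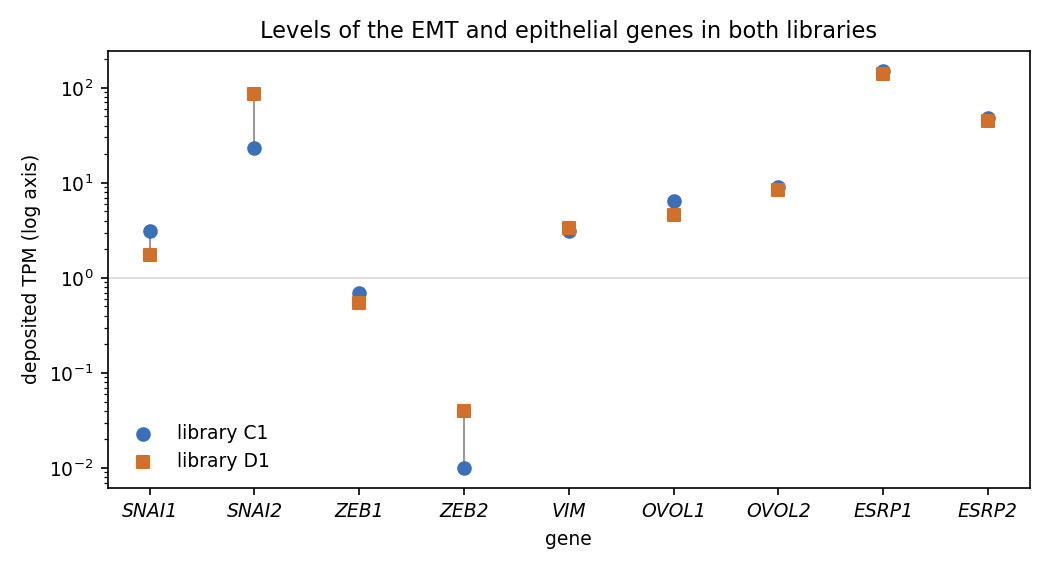
Deposited TPM of the 9 genes on a log axis, with circles for C1 and squares for D1, joined by a line for each gene. SNAI2 lies at 23.07 in C1 and 86.39 in D1, while the symbols of the ESRP and OVOL2 genes nearly overlap. The ZEB2 symbols stand for 1 and 3 reads.

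VIM was low in both libraries. VIM (NCBI gene 7431, chromosome 10 from 17228241 to 17237593) encodes vimentin, the intermediate filament protein of mesenchymal cells. It had 50 reads in C1 and 55 in D1, or 3.14 and 3.31 TPM. The log2 ratio was 0.23 (-0.35 to 0.81), so no difference was detectable at this depth, and the interval leaves out a 2-fold change in either direction. In C1 the levels of VIM and SNAI1, 3.14 and 3.11 TPM, were next to each other. The read ratio of SNAI2 to VIM was 8.58 in C1 and 30.5 in D1, a change of 3.55-fold (2.33 to 5.39).

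Both ESRP genes were abundant and nearly equal between the libraries. ESRP1 (NCBI gene 54845, chromosome 8 from 94641174 to 94707466) had 4842 and 4621 reads in C1 and D1, or 151.5 and 138.38 TPM, and was the highest of the 9 genes by TPM in each. Its log2 ratio was 0.02 (-0.04 to 0.08), or -0.10 (-0.15 to -0.04) with plain totals. ESRP2 (NCBI gene 80004, chromosome 16 from 68229033 to 68236127) had 1655 and 1615 rounded reads, or 48.27 and 44.21 TPM, with a log2 ratio of 0.05 (-0.04 to 0.15). ESRP2 overlaps NFATC3 in the annotation and part of its estimated counts were fractions. The TPM of ESRP1 was 3.14 times that of ESRP2 in C1 and 3.13 times in D1. By the counts, this ratio changed 0.98-fold (0.90 to 1.06). ESRP1 gave the narrowest counting interval of the members, because it had the most reads.

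The OVOL genes lay between the ESRP genes and VIM in level. OVOL2 (NCBI gene 58495, chromosome 20 from 18024152 to 18059188) had 117 and 110 reads in C1 and D1, or 8.94 and 8.36 TPM, with a log2 ratio of 0.00 (-0.39 to 0.39). OVOL1 (NCBI gene 5017, chromosome 11 from 65787063 to 65797214) had 165 and 124 reads, or 6.41 and 4.58 TPM, with a log2 ratio of -0.32 (-0.67 to 0.02). The OVOL1 interval includes 0 on TMM scaling but ran from -0.79 to -0.10 with plain totals, so this call too depends on the scaling. The TPM ratio of OVOL2 to OVOL1 was 1.39 in C1 and 1.83 in D1, and the read ratio changed 1.25-fold with an interval of 0.87 to 1.80 that includes no change.

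Set beside the epithelial genes, SNAI2 changed its place in the order. By TPM it stood below ESRP1 and ESRP2 in C1, and between them in D1. The TPM ratio of SNAI2 to ESRP2 was 0.478 in C1 and 1.95 in D1. The order of the other 8 genes by TPM was the same in both libraries, from ESRP1 through ESRP2, OVOL2, OVOL1, VIM, SNAI1 and ZEB1 to ZEB2. The read ratio of SNAI2 to each epithelial gene was higher in D1 by 4.09-fold for ESRP1 (3.65 to 4.60), 4.0025-fold for ESRP2 (3.52 to 4.55), 4.15-fold for OVOL2 (3.10 to 5.56) and 5.19-fold for OVOL1 (3.99 to 6.77). These comparisons share the reads of SNAI2.

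**Figure D2:**
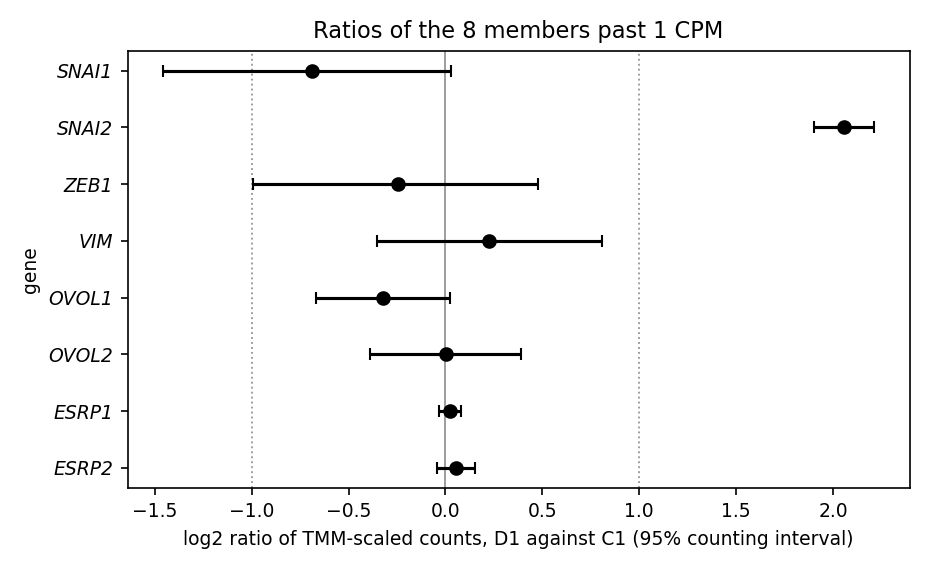
The log2 ratio of TMM-scaled counts, D1 against C1, for the 8 members at 1 CPM or more, with bars for the 95% counting interval and dotted lines at 2-fold. The interval of SNAI2 runs from 1.90 to 2.21, and those of the other 7 genes include 0 on this scaling; with plain totals those of SNAI1, OVOL1 and ESRP1 lie below 0.

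Against all genes, SNAI2 was the member past 2-fold. The background was the 13225 genes that reached 1 CPM in C1 or D1, of which 2.4% were higher in D1 by 2-fold or more and 4.54% were lower by 2-fold or more. Of the 8 members that passed this filter, 1 was at least 2-fold higher and none was lower. A counting interval is wider where reads are few, and SNAI1, ZEB1, VIM, OVOL1 and OVOL2 had 165 reads or fewer in each library. The counting interval included 0 for 7 of the 8 members, against 41.9% of all genes, which were not matched for reads. With plain totals it included 0 for 4 of 8, against 40.2%, since those of SNAI1, OVOL1 and ESRP1 then lay below 0. On TMM scaling it lay wholly within 2-fold for 6 of 8, against 82.1%, with ZEB1 at the edge. The median log2 ratio was 0.01 over the members and 0.01 over all genes. Of all genes at 2-fold or more, 34.6% were higher under TMM, against 24.4% with plain library totals and 21.6% with the deposited TPM. Plain totals moved the median of all genes to -0.11 and the deposited TPM to -0.14. On TMM scaling 5 of the 8 members lay above 0 (51.0% of all genes did) and 3 below, but on either of the other scales 2 lay above and 6 below, because ESRP1, ESRP2 and OVOL2 crossed 0.

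SNAI2 ranked first by ratio among 2554 genes whose mean log2 CPM lay within 0.5 of its own. In their own ranges of abundance ESRP1 ranked 431 of 686, ESRP2 1042 of 2096, OVOL2 458 of 1080 and ZEB1 551 of 960. VIM ranked 227 of 922, toward the higher ratios, while SNAI1 at 771 of 957 and OVOL1 at 848 of 1215 ranked toward the lower ones. The genes nearest to SNAI2 in ratio and abundance all had smaller ratios. They were NRG1, a ligand of the ERBB receptors (1.58), MAPKAP1, a subunit of the kinase complex mTORC2 (1.53), RPS6KA4, a kinase downstream of MAP kinases (1.53), and DSG3, a desmosomal cadherin of squamous epithelium (1.51). Even the interval of NRG1, from 1.41 to 1.76, lay below that of SNAI2, from 1.90 to 2.21. These genes are thus the next in order and not matches of SNAI2, and the order rests on 2 libraries.

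**Figure D3:**
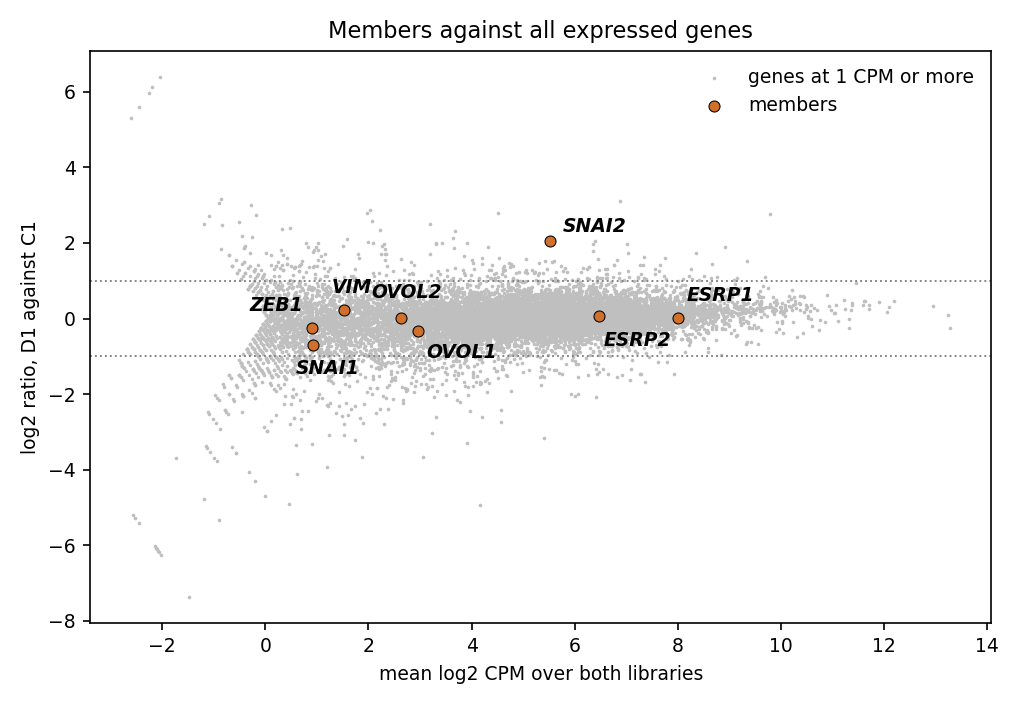
Mean log2 CPM over both libraries against the log2 ratio, D1 against C1, for the 13225 genes at 1 CPM or more (grey) and the 8 members that passed (orange), with dotted lines at 2-fold. SNAI2 lies at 2.05, and the other members lie between -0.69 and 0.23.

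Other EMT transcription factors lay on both sides of 0, about as all genes did. Of 16 listed genes 13 passed the filter, of which 1 was at least 2-fold higher (2.4% of all genes were) and none was lower (4.54% of all genes). Of the 13, 7 lay above 0 (51.0% of all genes did) and 6 below. The median was 0.02, against 0.01 over all genes. The higher gene was TCF3, the E-protein that pairs with other helix-loop-helix factors, with 1123 and 2243 reads and a log2 ratio of 1.09, which falls short of 2-fold with plain totals or the deposited TPM. HMGA2, a chromatin protein upstream of SNAI genes, had a log2 ratio of 0.84. The low-count genes KLF8, with 20 and 10 reads, and TCF4, with 43 and 25, had -0.88 and -0.68, and both intervals include 0. TWIST1 and TWIST2, helix-loop-helix factors of mesoderm, were named after their values were seen. TWIST2 had 24.8 and 22.39 TPM in C1 and D1, about the level of SNAI2 in C1, with a log2 ratio of 0.02. TWIST1 had 12.25 and 8.96 TPM with a log2 ratio of -0.30. The read ratio of SNAI2 to TWIST2 changed 4.09-fold (3.33 to 5.02).

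The epithelial transcription factors outside the 9 genes lay on both sides of 0, about as all genes did. Of 16 that passed the filter, 1 was at least 2-fold higher (2.4% of all genes were) and 3 were at least 2-fold lower (4.54% of all genes). Of the 16, 8 lay above 0 (51.0% of all genes did) and 8 below. The median was 0.01, as it was over all genes. TP63, the regulator of stratified epithelium, had 1869 and 4690 reads and a log2 ratio of 1.42. FOXA1, a pioneer factor of luminal and secretory epithelia, had 1816 and 776 reads (-1.14). GATA3, a factor of luminal and skin epithelium, had 179 and 81 (-1.05), and GRHL3, a grainyhead factor of the epidermal barrier, had 43 and 15 (-1.40). GRHL2, a grainyhead factor known to hold ZEB1 down, was named after its value was seen and had 50.58 and 45.49 TPM with a log2 ratio of 0.01.

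Epithelial genes known as targets of SNAI and ZEB repressors lay lower in D1 on balance. All 24 passed the filter, and 17 lay below 0 (49.0% of all genes did). Of the 24, 4 were at least 2-fold lower (4.54% of all genes were) and 1 was at least 2-fold higher (2.4% of all genes). The median was -0.26, against 0.01 over all genes. The tight junction genes TJP3, with 204 and 36 reads (-2.40, interval -2.97 to -1.90), CLDN3, with 34 and 7 (-2.11), and CLDN4, with 2522 and 1031 (-1.20), were lower. The other lower gene was SPINT1, a surface protease inhibitor that was chosen after its value was seen (-1.02). DSP, with both E-boxes shown above, went the other way with 7207 and 13836 reads (1.03), and it fell short of 2-fold with plain totals, TPM or FPKM. CDH1 itself, named after its value was seen, had 160.06 and 126.12 TPM and a log2 ratio of -0.19. The epithelial surface protein gene EPCAM, also named after its value was seen, had 381.69 and 324.92 TPM (-0.08).

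Mesenchymal genes also lay lower on balance. Of 17 that passed the filter, 4 were at least 2-fold lower (4.54% of all genes were) and 2 were higher (2.4% of all genes). Of the 17, 12 lay below 0 (49.0% of all genes did) and the median was -0.42. FN1, the matrix protein fibronectin, had 2518 and 597 reads (-1.99), TNC, the matrix glycoprotein tenascin C, 256 and 76 (-1.66), and CDH11, a mesenchymal cadherin, 120 and 47 (-1.25). DDR2, a collagen receptor, had 8 and 26 reads (1.73, interval 0.61 to 3.14), and TAGLN, an actin-binding protein named after its value was seen, 40 and 83 (1.13). With the deposited TPM 1 gene was at least 2-fold higher, and with FPKM, at 10 CPM or more, or with whole counts only, none was. The neural cadherin gene CDH2, named after its value was seen, had 598 and 314 reads (-0.84). The CDH1 to CDH2 ratio of TPM was 9.15 in C1 and 14.5 in D1, and by reads it changed 1.56-fold (1.36 to 1.81).

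Most genes listed for the TGF-beta route, the best known inducer of SNAI and ZEB genes, had lower mRNA in D1. Of 14 that passed, 11 lay below 0 (49.0% of all genes did). Of the 14, 2 were at least 2-fold lower (4.54% of all genes) and none was higher (median -0.43). The ligand TGFB2 had 562 and 113 reads (-2.22), the co-receptor TGFBR3 72 and 30 (-1.16), the receptor TGFBR2 2596 and 1321 (-0.88), and the latent ligand binder LTBP1 136 and 77 (-0.73). SMAD4, the shared partner of receptor SMADs, had 5 reads in each library and did not pass the filter; it was named after its value was seen. SMAD3 and the ligand gene TGFB1, likewise named after their values were seen, had log2 ratios of 0.72 and 0.20. The list also holds genes that restrain the route, named here after their values were seen. Of these SKIL (-0.71), BAMBI (-0.72), SKI (-0.36) and SMAD7 (-0.29, interval including 0) lay below 0, and TGIF1 lay at 0.02. The list median is thus no measure of the route's activity, which was not tested.

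**Figure D4:**
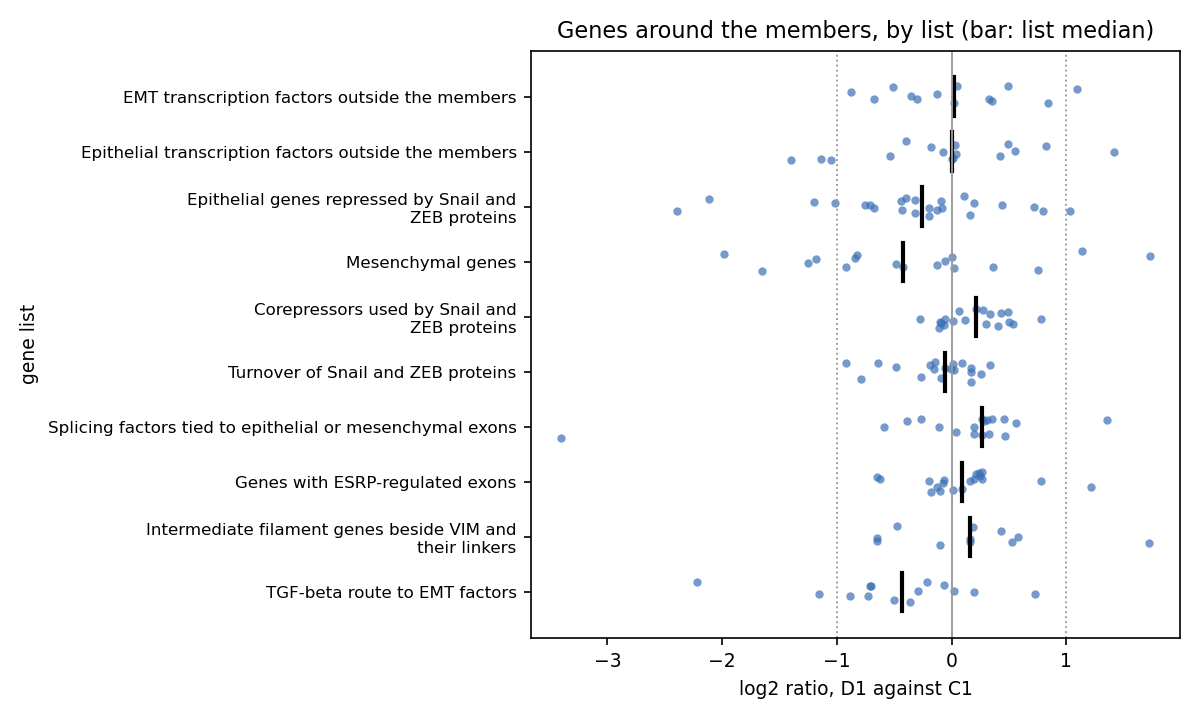
Each point is the log2 ratio, D1 against C1, of 1 gene at 1 CPM or more in the lists around the members, with a black bar at the list median and dotted lines at 2-fold. The medians run from -0.43 for the TGF-beta route to 0.26 for the splicing factors, while that over all genes is 0.01.

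On TMM scaling, genes for the cofactors and the turnover of SNAI and ZEB proteins were within 2-fold, as most genes were. Of all genes, 2.4% were at least 2-fold higher and 4.54% at least 2-fold lower. All 19 corepressor genes lay between, 13 of them above 0, where 51.0% of all genes lay (median 0.21, or 0.09 with plain totals and 0.08 with TPM). KDM1A, the histone demethylase recruited by the SNAG domain of SNAI proteins, had a log2 ratio of 0.50, CTBP2, a corepressor bound by ZEB proteins, 0.54, and the arginine methyltransferase PRMT5 0.49. AJUBA, a LIM protein that bridges SNAI1 to corepressors, had 19 and 31 reads (0.78, interval -0.07 to 1.70). All 19 turnover genes also lay between, with 8 above 0 and 11 below, where 49.0% of all genes lay (median -0.06). LOXL2, a lysyl oxidase known to stabilise Snail, had 4337 and 2146 reads (-0.92, and past 2-fold lower with plain totals, TPM at -1.07, or FPKM). The kinase gene PRKD1 had -0.79, the deubiquitinase gene USP51 -0.64, and BTRC, the ubiquitin ligase subunit that recognises phosphorylated Snail, -0.48.

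Splicing factors that act beside the ESRP proteins lay slightly above 0 on balance. Of 18 genes, 13 lay above 0 (51.0% of all genes did). Of the 18, 1 was at least 2-fold higher (2.4% of all genes were) and 1 lower (4.54% of all genes). The median was 0.26, or 0.14 with plain totals and 0.11 with TPM. MBNL3, a muscleblind splicing factor, had 316 and 760 reads (1.35), and PTBP1, which represses many exons, 0.56. QKI, a factor that favours mesenchymal exons, had 3449 and 2159 reads (-0.59), and NOVA1, a mainly neuronal factor, had 39 and 3 (-3.41, interval -5.95 to -1.96). RBM47, an epithelial splicing factor named after its value was seen, had a log2 ratio of 0.19.

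Genes with exons known to be set by ESRP proteins were measured here by gene and not by exon. Of 19 genes 1 was at least 2-fold higher (2.4% of all genes were) and none lower (4.54% of all genes). The median was 0.09, or -0.03 with plain totals. The higher gene was the receptor gene FGFR3, with 494 and 1076 reads (1.21). FGFR2, whose epithelial exon is the best known ESRP target, had 282 and 456 reads (0.78), FGFR1, a mesenchymal receptor, 216 and 129 (-0.65), and RALGPS2, an exchange factor for Ral GTPases, 959 and 583 (-0.63). The transcript length implied by a gene's counts and its deposited TPM moves when the mix of long and short isoforms moves, and it was used as a coarse readout of isoforms. It differed by more than 0.1 on the log2 scale between the libraries for 1 of 17 of these genes that could be compared, and for 4.37% of 9596 genes. That gene was RALGPS2, whose implied length was higher in D1 by 0.16. None of the 4 members that could be compared passed 0.1, with ESRP2 at 0.03 and OVOL2 at -0.05. Exons of equal length, such as the alternative exons of FGFR2, leave this readout almost unmoved.

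The other intermediate filament genes and their linkers gave 1 of 11 genes at least 2-fold higher (2.4% of all genes were) and none lower (4.54%). Their median was 0.16, against 0.01 over all genes, or 0.04 with plain totals and 0.07 with TPM. LMNB1, a lamin of the nuclear envelope, had 1364 and 4229 reads (1.72). FLNA, an actin crosslinker that binds vimentin, had 0.58. SYNM and NES, which encode filament proteins that assemble with vimentin, had -0.65 each, the latter from 42 and 25 reads with an interval that includes 0.

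Markers of squamous epithelium were mostly higher in D1, as SNAI2 was. All 14 passed the filter in a line labelled as hypopharyngeal tumour. Of them 10 were at least 2-fold higher in D1 (2.4% of all genes were), while none was 2-fold lower (4.54% of all genes were). With plain totals, the deposited TPM or the deposited FPKM, 8 were at least 2-fold higher. Their summed level was 2909 TPM in C1 and 7009 TPM in D1. The basal keratin genes KRT5 (2.77) and KRT14 (3.12), KRT6A (2.78) and the 14-3-3 protein gene SFN (1.88) had the largest ratios. Keratin genes share sequence and their counts were partly fractions, so how reads were divided among them is uncertain. The part of these genes in the SNAI2 difference was not tested.

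The summed deposited TPM of 4 lists of markers for other cell types was lower in D1, where SNAI2 was higher. On that scale the median log2 ratio of all genes was itself -0.14. On TMM scaling 2 of 4 endothelial and 2 of 4 leukocyte markers that passed the filter lay above 0 (51.0% of all genes did), with CD68 at 0.09. All 6 melanocyte and neural crest markers that passed lay below 0 (49.0% of all genes did). Markers that the table does not list were not analysed here. Of 10 fibroblast markers 7 were in the table and 1 passed the filter, COL1A1 with 199 and 82 reads, and the list summed to 4.19 TPM in C1 and 1.81 in D1. No measured marker of these 4 lists was at 0 in both libraries, but COL3A1, PDGFRB, DCT and CD4 each had 0 reads in C1 and 1 in D1, and COL6A3 and S100B had 1 in C1 and 0 in D1. Melanocyte and neural crest markers summed to 51.1 and 28.1 TPM, mostly from the receptor gene ERBB3 with 32.94 and 19.98 TPM. TYRP1, a melanosome enzyme, had 217 and 85 reads, MITF, the melanocyte regulator, 148 and 62, FOXD3, a neural crest factor, 30 and 8, and MLANA, a melanosome protein, 33 and 20. SOX10, the defining neural crest factor, had 1 read in each library. Endothelial markers summed to 32.3 and 9.48 TPM, mostly from CDH5, vascular cadherin, with 1000 and 249 reads. The adhesion gene ESAM had 26 and 5 reads, the transcription factor gene ERG 21 and 40, VWF, a clotting protein, 22 and 29, and the defining gene PECAM1 12 and 13. Leukocyte markers summed to 93.4 and 81.4 TPM, mostly from CD68, a lysosomal protein also made by other cells, with 69.9 and 67.53 TPM. CD14 had 215 and 120 reads, LYZ 32 and 35, ITGAM 35 and 17, and PTPRC, which marks all leukocytes, 15 and 11. ERBB3, SOX10, PECAM1, PTPRC, COL3A1, PDGFRB, DCT, CD4, COL6A3 and S100B were named after their values were seen. The part of the marker genes in the results was not tested.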

How the data were processed

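RNA-seq of FaDu cells was deposited as 1 table with estimated counts, TPM and FPKM for 16951 genes in 2 libraries. Per the file headers, the authors deposited unnormalized estimated counts beside TPM and FPKM values. Bowtie2, RSEM and hg38 are named in the submitters' processing notes; no source used here states versions or annotation. Counts were rounded (48.9% in C1 and 48.2% in D1 were fractional). Codes C1 and D1 were read provisionally as control and knock-down, a reading that KIF2C goes against.

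TMM sizes came from edgeR 4.0.16 (R 4.3.3), with DESeq2 1.42.0 size factors as an alternative. Log2 ratios add 0.5 counts. Intervals are 95% Clopper-Pearson intervals of D1's share of a gene's reads, converted to the ratio scale; ratios between genes have exact conditional intervals (scipy 1.17.1). Genes at 1 CPM or more (19.0 reads in C1, 17.8 in D1) in either library were counted. The procedure was tested on simulated data. Coordinates come from RefSeq GRCh38.p14, to which 16887 identifiers (99.6%) matched. Genes named by rule were the 9 members, KIF2C, up to 4 genes per list with the largest absolute ratio, and 4 genes nearest to SNAI2. Any other gene whose values are given was picked after they were seen. The members and lists were chosen with earlier results of these data known. The implied length was added after seeing the data.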

Additional observations from a re-analysis of the deposited data

How the results depend on the processing

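The log2 ratio of SNAI2 lay between 1.90 (deposited TPM) and 2.05 in every alternative run, and the change of its read ratio to each other member at 1 CPM or more moved within its interval when TPM replaced counts. The count of genes at least 2-fold higher, 318, became 240 with plain totals, 204 with the deposited TPM and 190 with the deposited FPKM. It was 1040 without a filter on low counts, 171 at 10 CPM or more, 179 with whole counts only and 1053 at a 1.5-fold threshold. The count at least 2-fold lower, 601, became 743 with plain totals, 739 with the deposited TPM and 605 with the deposited FPKM. It was 1669 without a filter, 216 at 10 CPM or more, 334 with whole counts only and 1402 at 1.5-fold. Without a filter 2 members were at least 2-fold higher, since ZEB2 with 1 and 3 reads was then counted, and at 1.5-fold 1 member, SNAI1, was lower. The FPKM and TPM ratios used a pseudocount of 0.1. Plain totals lower every ratio alike and moved the median of all genes from 0.01 to -0.11. With it, as with TPM or FPKM, the medians of the EMT and epithelial transcription factor lists and of the genes with ESRP-regulated exons fell below 0. The median of the epithelial factors, 0.01, was also below 0 with DESeq2 factors (-0.0029) and upper-quartile factors (-0.01). No paired analysis was possible because each condition has 1 library, and for the same reason no library could be left out. Depth limits SNAI1, ZEB1, ZEB2 and VIM, which had 55 reads or fewer in each library.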
